A study of Mus musculus with 4 samples.

Results

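The 9 genes described here encode the enzymes that make cysteine from homocysteine (Cth, Cbs), build glutathione from cysteine (Gclc, Gclm, Gss), keep it reduced (Gsr) and break it or its gamma-glutamyl products down inside the cell (Chac1, Chac2, Ggct). The set was drawn up with earlier results of these data known, so its counts are not independent evidence. Its genes were matched by symbol in the platform's probe annotation. All 9 were found, each read by 1 probe set, among 19505 named genes on the array. The cells were Neuro-2a, a line grown from a mouse neuroblastoma of an albino strain A animal. They were given 30 µM deltamethrin, a pyrethroid insecticide that delays the closing of voltage-gated sodium channels, or the vehicle alone, for 24 h. Both groups received DMSO at 0.1%, and each was read on 2 Clariom S Mouse arrays. No genetic change, second agent or second cell line was part of the design, and it held 1 dose and 1 time.

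Glutathione is the main small thiol of animal cells, and cysteine is usually what limits its synthesis. Cysteine enters as cystine through the exchanger xCT or is made by transsulfuration, in which cystathionine beta-synthase (Cbs) joins homocysteine to serine and cystathionine gamma-lyase (Cth) releases cysteine. Glutamate-cysteine ligase, with a catalytic subunit (Gclc) and a modifier subunit (Gclm), then makes gamma-glutamylcysteine, and glutathione synthetase (Gss) adds glycine. NRF2 is a textbook activator of the ligase genes and of Gsr. ATF4, the transcription factor of the integrated stress response, is one of Cth and Chac1, the latter together with CHOP.

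Chac1 and Chac2 are paralogs that both cleave glutathione in the cytosol, Chac1 as a stress-inducible enzyme and Chac2 as the slower form present in many tissues. Their promoters are shown because the pair had unlike estimates on the arrays. The sequences, from RefSeq on GRCm38.p6, are the 250 bases before each gene's start, printed 5′ to 3′ on the gene's strand. Chac1 lies at chr2:119350992-119351241 on the plus strand and Chac2 at chr11:30986366-30986615 on the minus strand. Capitals mark matches to TGACGCAA, an ATF/CRE composite form, and to TGATGNAA, the C/EBP-ATF response element bound by ATF4 dimers.
Chac1: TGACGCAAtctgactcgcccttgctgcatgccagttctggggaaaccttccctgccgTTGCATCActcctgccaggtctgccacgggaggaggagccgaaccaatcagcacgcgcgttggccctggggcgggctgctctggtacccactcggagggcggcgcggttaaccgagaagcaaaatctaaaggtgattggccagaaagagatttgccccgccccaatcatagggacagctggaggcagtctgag
Chac2: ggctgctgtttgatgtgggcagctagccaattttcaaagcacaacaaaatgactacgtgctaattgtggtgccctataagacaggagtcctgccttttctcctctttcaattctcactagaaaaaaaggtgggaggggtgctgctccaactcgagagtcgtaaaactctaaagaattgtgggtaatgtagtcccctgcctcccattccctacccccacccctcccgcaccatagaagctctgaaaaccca
In Chac1 the TGACGCAA match began 250 bases before the start, and a minus-strand match to TGATGNAA, read here as TTGCATCA, began 193 bases before it. Among all 32851 RefSeq promoter windows of 300 bases (250 before and 50 after the start), searched on both strands, TGATGNAA was in 3.97% and TGACGCAA in 0.49%. The second motif was added after the Chac1 sequence had been seen, so its match is not independent of the choice. Promoter windows were matched for 6 of the 9 genes. Cth, Gclc and Gsr were the others.

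The core of the antioxidant response element bound by NRF2, TGACNNNGC, was in 12.4% of the windows. Gclm held it on the minus strand as GCACCGTCA, beginning 134 bases before the start. Ggct held it as GCGACGTCA, beginning 174 bases before the start on the minus strand, and as TGACGCTGC on the plus strand within the 50 bases after the start. The cAMP response element TGACGTNA, present in 2.93% of windows, was in none of the 6. These are matches of letters, not measured binding, and the windows reach no further than 250 bases upstream.

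None of the 9 genes passed the test over all probe sets (limma, two-sided, Benjamini-Hochberg adjusted p below 0.05), where 0.432% of the 22206 probe sets did. Cth, Chac1 and Gclc had the largest estimates, all higher with deltamethrin, and they were the 3 of 9 with an unadjusted p below 0.05, against 13.7% of all probe sets. These shares include dim probe sets, whereas all 9 genes lay above the median level of all probe sets. With probe sets below the 40th percentile of level left out, 312 were called and 2695 had an unadjusted p below 0.05 in limma. Out of the fewer probe sets that remained, both are larger shares than the 0.432% and 13.7% of all probe sets. The 9 genes then held 0 calls and the same 3 at an unadjusted p below 0.05. The deltamethrin arrays lay above both vehicle arrays for 5 of the 9 genes (Cth, Cbs, Gclc, Gclm and Chac1) and below both for Ggct, while those of Gss, Gsr and Chac2 overlapped. Of all probe sets, 20.3% were separated upward and 23.5% downward. The median estimate over the 9 genes was 0.22, beside -0.02 over all probe sets, with 6 estimates above 0 and 3 below. The 9 genes were not chosen independently of these data. Values are log2 expression as deposited, where 1 unit is a doubling. Their errors are SD over the 2 arrays of a group for levels and the standard error (SE) of the fit for differences.

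The labels do not say that the arrays came from separate cultures, so the spread between arrays behind the p-values may be technical. The fit also drew each gene's spread towards a value from all probe sets (4.43 prior beside 2 residual degrees of freedom). No batch label was used here, and a batch that followed the groups cannot be told apart from the exposure. The array medians ran from 5.61 to 5.63. Precision is limited by having 2 arrays a group: in this fit the smallest called log2 fold change was 1.22, larger than any estimate among the 9, while with a mean-variance trend, which lets the expected spread depend on the level, it was 0.37. The 11 sympathoadrenal and neuronal markers measured were all above the median level of all probe sets. Among those 11 markers 0 passed, 10 had lower estimates with deltamethrin and the median was -0.27. The largest estimate was that of the noradrenaline enzyme Dbh (-1.26 ± 0.47, SE), and the catecholamine enzyme Th was the exception, at 0.90 ± 0.27. With the trend Isl1 and Chgb fell, and Isl1 also fell with dim probe sets left out (adjusted p = 0.0265). These 4 markers were picked after their values were seen. The part of these markers in the enzyme values was not tested. Markers of hepatocytes, astrocytes, fibroblasts and macrophages also held 0 calls, and 3 of these 16 reached a mean above that median in either group. Of the 4 fibroblast markers 2 had higher and 2 lower estimates. The largest, Pdgfrb, named after its value was seen, was at 1.18 ± 0.34 (SE, limma adjusted p = 0.225). In bulk RNA, fewer cells of a type and less RNA per cell cannot be told apart.

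**Figure D1:**
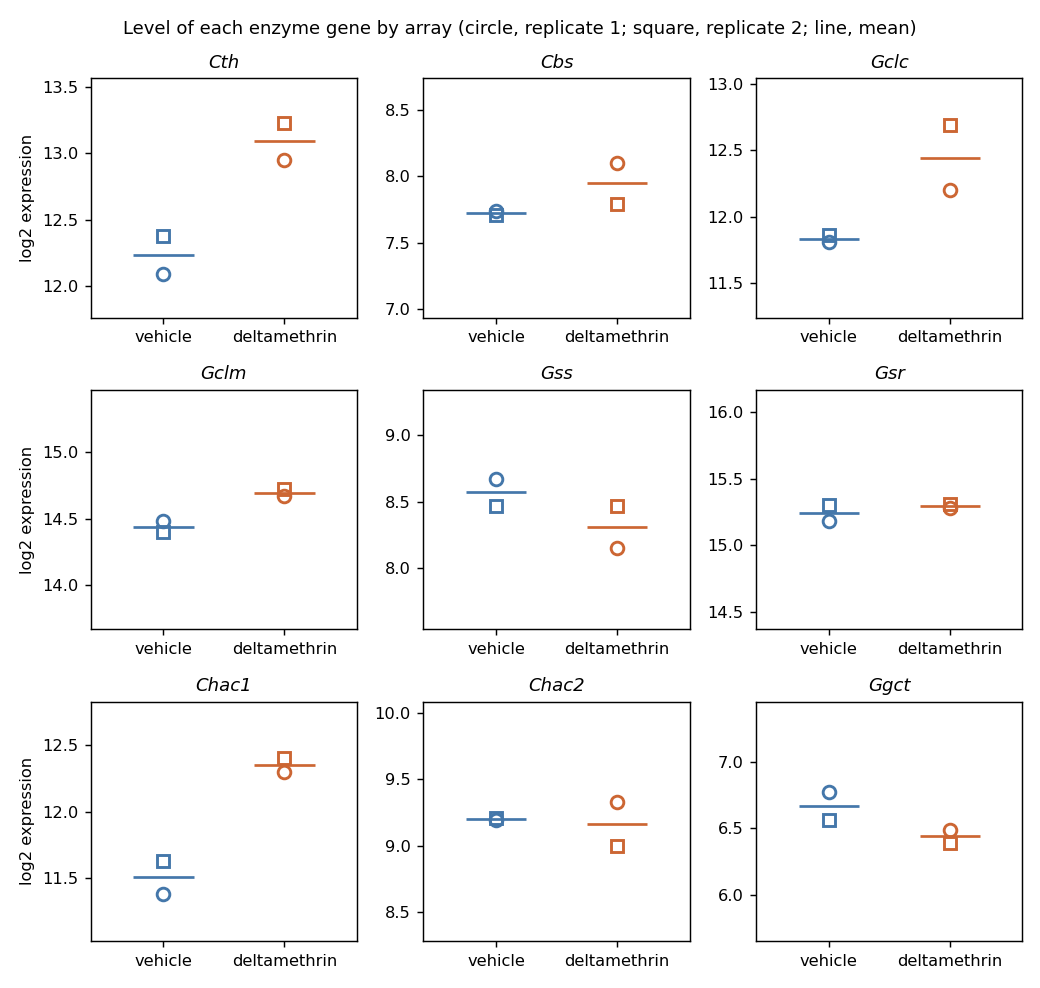
Log2 expression (y axis, with a range of equal height but its own position in each panel) of the 9 enzyme genes in the vehicle arrays (blue) and the deltamethrin arrays (orange), with circles for replicate 1, squares for replicate 2 and lines for group means. Cth, Chac1 and Gclc show the widest gaps between groups, and the deltamethrin arrays of Gclc lie 12.20 and 12.69, further apart than its vehicle arrays.

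Transsulfuration was read by its 2 consecutive enzymes. Cth was at 12.09 and 12.38 in the vehicle arrays and at 12.95 and 13.23 in the deltamethrin arrays. Both exposed arrays were above both controls, and the gap between the nearest arrays of the groups was wider than the gap within either group. The means were 12.24 ± 0.21 and 13.09 ± 0.20 (SD, n = 2), which gave a log2 difference of 0.86 ± 0.20 (SE), or 1.81-fold, with a 95% interval from 0.38 to 1.33. The adjusted p over all probe sets in limma was 0.161, so this was not a call. With a mean-variance trend Cth was called (adjusted p = 0.0150, where 2.25% of all probe sets rose), and over the 11 alternatives its adjusted p ran from 0.0150 to 0.678.

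Cbs, which commits homocysteine to this route, was at 7.74 and 7.71 with vehicle and at 8.10 and 7.79 with deltamethrin. The second exposed array lay just above the vehicle pair and the first stood apart from it. The log2 fold change was 0.22 ± 0.18 (SE, n = 2 per group, 95% interval -0.22 to 0.66, limma adjusted p = 0.657), and it was 0.07 without deltamethrin replicate 1 and 0.38 without deltamethrin replicate 2. The within-array difference Cth minus Cbs was 4.35 and 4.67 with vehicle and 4.85 and 5.44 with deltamethrin. It describes a change in the ratio of the 2 readings, not their relative abundance. The change was 0.64 and the groups did not overlap, but their nearest arrays lay closer together than the arrays within either group. The exact two-sided permutation p was 0.333, the smallest that 2 against 2 arrays allow, and 3 such pairs were compared (adjusted p = 0.333 for each).

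The glutamate-cysteine ligase subunits had estimates of unequal size. Gclc, the catalytic subunit and the usual rate-limiting step, was at 11.81 and 11.86 with vehicle and at 12.20 and 12.69 with deltamethrin. The vehicle arrays were close together, and the exposed arrays were both higher but further apart than the first of them was from the controls. The means were 11.84 ± 0.04 and 12.45 ± 0.35 (SD, n = 2), which gave a log2 difference of 0.61 ± 0.21 (SE), or 1.53-fold, with a 95% interval from 0.10 to 1.12 and an adjusted p of 0.297 in limma. It was 0.37 without deltamethrin replicate 2 and 0.86 without deltamethrin replicate 1.

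Gclm, the modifier that lowers the enzyme's sensitivity to feedback by glutathione, was at 14.48 and 14.40 with vehicle and at 14.67 and 14.72 with deltamethrin. Its exposed arrays were again both higher, by a small step. The log2 fold change was 0.26 ± 0.16 (SE, n = 2 per group, 95% interval -0.14 to 0.65, limma adjusted p = 0.552). The change in Gclc relative to Gclm was 0.36 on the log2 scale (exact permutation p = 0.333, the smallest possible). The per-array differences behind it were -2.67 and -2.54 with vehicle and -2.47 and -2.03 with deltamethrin, so the nearest arrays of the 2 groups lay closer together than the vehicle arrays did.

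Gss, which completes glutathione, was at 8.67 and 8.47 with vehicle and at 8.15 and 8.47 with deltamethrin. The groups met at 8.47, and only the first exposed array was lower. The estimate was -0.26 ± 0.19 (SE, n = 2 per group, limma adjusted p = 0.611), with a 95% interval from -0.72 to 0.20. It was -0.42 without deltamethrin replicate 2 and -0.10 without deltamethrin replicate 1.

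Gsr, the reductase that returns oxidised glutathione to its thiol form with NADPH, was at 15.18 and 15.30 with vehicle and at 15.28 and 15.31 with deltamethrin. The groups overlapped and all 4 arrays lay close together. Its log2 fold change of 0.06 ± 0.16 (SE, n = 2 per group) had a 95% interval from -0.34 to 0.45 (limma adjusted p = 0.922).

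**Figure D2:**
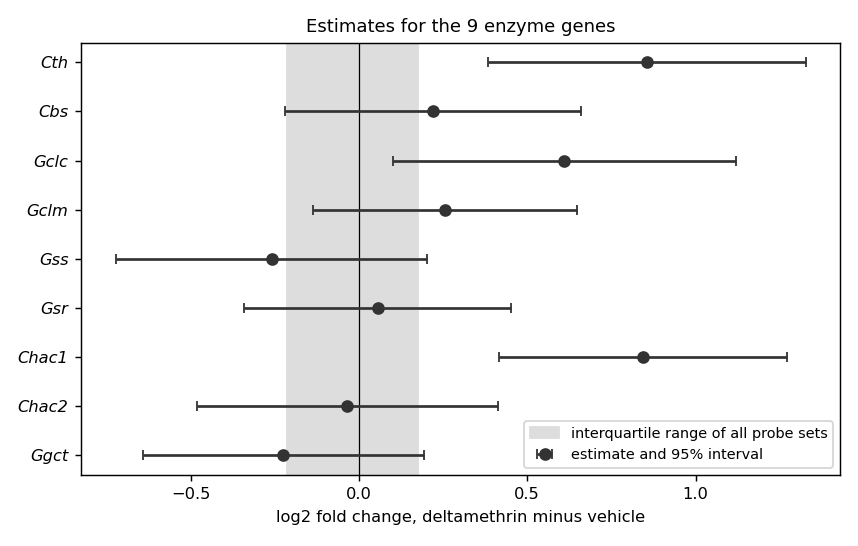
Log2 fold change, deltamethrin minus vehicle (x axis), of each enzyme gene with its 95% interval from the moderated fit, over a grey band for the interquartile range of all probe sets, from -0.22 to 0.18. The intervals of Cth, Gclc and Chac1 lie above 0 before adjustment, and those of the other 6 genes cross it.

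Among the enzymes of glutathione breakdown, Chac1 was the one with higher readings. It was at 11.38 and 11.63 with vehicle and at 12.30 and 12.40 with deltamethrin. Both exposed arrays stood above both controls, and the nearest arrays of the groups were further apart than the arrays within either group. The means were 11.51 ± 0.18 and 12.35 ± 0.07 (SD, n = 2), which gave a log2 difference of 0.85 ± 0.18 (SE), or 1.80-fold, with a 95% interval from 0.42 to 1.27. It had the smallest p of the 9 genes, rank 408 of 22206, and an adjusted p of 0.142 in limma. With a mean-variance trend it was called (adjusted p = 0.0123), and over the 11 alternatives its adjusted p ran from 0.0123 to 0.678.

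Chac2 was at 9.19 and 9.21 with vehicle and at 9.33 and 9.00 with deltamethrin. The exposed arrays fell on either side of the controls. Its estimate was -0.04 ± 0.19 (SE, n = 2 per group, limma adjusted p = 0.960), with a 95% interval from -0.48 to 0.41. The within-array difference Chac1 minus Chac2 was 2.19 and 2.42 with vehicle and 2.97 and 3.40 with deltamethrin. This was the largest change among the 3 pairs, at 0.88 on the log2 scale, and the groups did not overlap. The exact permutation p was 0.333, which the design cannot go below. The promoters printed above are those of this pair.

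Ggct, which releases 5-oxoproline from gamma-glutamyl amino acids and does not act on glutathione itself, was at 6.77 and 6.56 with vehicle and at 6.49 and 6.39 with deltamethrin. It was the single gene of the 9 with both exposed arrays below both controls, by a gap smaller than the spread of the vehicle arrays. The log2 fold change was -0.23 ± 0.17 (SE, n = 2 per group, 95% interval -0.64 to 0.19, limma adjusted p = 0.628), and it was -0.12 without vehicle replicate 1.

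**Figure D3:**
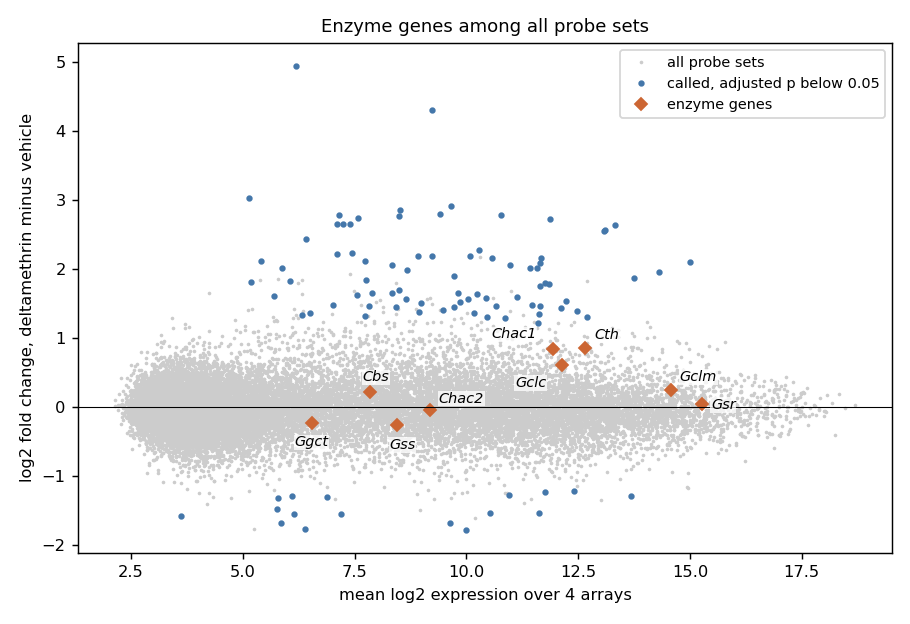
Log2 fold change (y axis) against mean log2 expression over the 4 arrays (x axis) for all 22206 probe sets (grey), the 96 called ones (blue) and the 9 enzyme genes (orange, named). The enzyme genes lie within the grey cloud, and none is at the height of the called genes. By size of rise Cth, Chac1 and Gclc rank 406, 426 and 947 of the 22206.

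The genes whose 4 readings were most like those of Cth, the enzyme gene of largest estimate, were Osbpl2, Fbxo6 and Sel1l. Likeness was the Euclidean distance over the 4 arrays after each gene was centred on its vehicle mean, and the distances were 0.052, 0.059 and 0.070. Osbpl2, an oxysterol-binding protein relative, read 10.44 and 10.79 with vehicle and 11.30 and 11.61 with deltamethrin. Fbxo6, an F-box protein that binds glycoproteins, read 7.68 and 7.91, then 8.47 and 8.78. Sel1l, an adaptor of endoplasmic reticulum degradation, read 10.74 and 11.04, then 11.63 and 11.95. In each the second array of a group was the higher, as in Cth, which follows from the way these genes were chosen. None of the 3 passed in limma (adjusted p = 0.183, 0.165 and 0.153), although Osbpl2 and Sel1l were called with a mean-variance trend (adjusted p = 0.0314 and 0.0202). The choice also makes their estimates close to that of Cth, so these results are not separate evidence.

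The supply side outside transsulfuration held the one call in the lists of neighbouring metabolic steps. Of 5 genes for cystine and cysteine uptake 1 rose, 0 fell and 4 did not pass, with a median estimate of 0.23 beside -0.02 over all probe sets. The riser was Slc7a11, the xCT subunit that carries cystine, at 11.94 and 12.13 with vehicle and 13.32 and 13.37 with deltamethrin. Its log2 fold change was 1.31 ± 0.17 (SE, limma adjusted p = 0.0468). Leaving out any 1 of the 4 arrays (vehicle replicate 1 or 2, deltamethrin replicate 1 or 2) left 0 calls among all probe sets, this one included. The Slc7a11 estimate then ran from 1.22 to 1.41. Slc3a2, the heavy chain that xCT needs at the membrane, was at 0.17 ± 0.17 and Slc1a4, a neutral amino acid carrier named here after its value was seen, at 0.68 ± 0.18. With a mean-variance trend Slc1a4 was called as well (adjusted p = 0.0306).

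The methionine cycle, which delivers homocysteine, held 0 calls among 11 measured genes, with a median of -0.08 and estimates above 0 for 5 and below for 6. The largest was that of Mat1a, the liver form of methionine adenosyltransferase, which read 6.79 and 6.54 with vehicle and 5.71 and 5.99 with deltamethrin. Its log2 fold change was -0.82 ± 0.19 (SE, adjusted p = 0.169). Ahcyl1, a relative of the hydrolase that frees homocysteine and the brightest of the list, was at 0.18 ± 0.17, and between 0.07 and 0.28 with 1 array left out. Mat2a was not analysed here.

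Cysteine breakdown, taurine and sulfide genes held 0 calls among 11, with a median of -0.19. Got1, the cytosolic aspartate aminotransferase that also transaminates cysteine, had the largest estimate. It read 13.40 and 13.65 with vehicle and 14.55 and 14.83 with deltamethrin, a log2 difference of 1.17 ± 0.19 (SE, adjusted p = 0.0864), and was called with a mean-variance trend (adjusted p = 0.00169) and with dim probe sets left out (adjusted p = 0.0333). The mitochondrial form Got2, the brightest, was at -0.05 ± 0.16, but its mean level of 18.03 lay near the array maxima of 18.65 to 18.75.

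Genes for glutathione breakdown outside the cell, export and mitochondrial import held 0 calls among 13, with a median of 0.04. The mitochondrial glutathione carriers Slc25a39 and Slc25a40 were at 0.27 ± 0.16 and 0.48 ± 0.21, the brightest gene and the largest estimate of that list. Slc25a40 ran from 0.27 without vehicle replicate 2 to 0.69 without vehicle replicate 1. The dim dipeptidase gene Dpep1, named after its value was seen, was nearly as far from 0 at -0.47 ± 0.16. Ggt1 was not analysed here. Glutathione peroxidases, glutaredoxins and related thiol enzymes held 0 calls among 14, with a median of 0.02. Gpx4, which reduces lipid hydroperoxides with glutathione, had the largest estimate, with 13.41 and 13.27 in vehicle and 14.11 and 13.92 in deltamethrin arrays (0.68 ± 0.17, adjusted p = 0.192). It was called with a mean-variance trend (adjusted p = 0.0167). Glrx2, the mitochondrial glutaredoxin and the brightest of these, was at 0.06 ± 0.16.

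The NADPH supply on which Gsr depends held 0 calls among 8 measured genes, with a median of 0.07. Me2, a mitochondrial malic enzyme that works mainly with NAD, had the largest estimate at -0.50 ± 0.17 (adjusted p = 0.299). Its estimate is therefore not a reading of NADPH supply. Idh1, the cytosolic isocitrate dehydrogenase, was the brightest and at 0.04 ± 0.17. G6pdx and Tkt were not analysed here.

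The transcription factors of the ATF4 and NRF2 branches were the list with most calls: 3 of 13 rose, 0 fell and 10 did not pass, beside 0.432% of all probe sets called, and the median was 0.46. With a mean-variance trend 6 rose, beside 2.25% of all probe sets. The risers were Ddit3 (CHOP), Atf3 and the pseudokinase gene Trib3. Atf3 read 10.51 and 10.67 with vehicle and 12.77 and 12.73 with deltamethrin, a log2 difference of 2.16 ± 0.17 (SE, adjusted p = 0.0134). Trib3 was at 1.40 ± 0.17 (adjusted p = 0.0410) and the brighter of the 2 Ddit3 probe sets at 2.57 ± 0.26 (adjusted p = 0.0261). Atf4 itself, whose activity is controlled largely by translation, was at 0.23 ± 0.16 (adjusted p = 0.598). All 13 estimates were above 0. Values for genes of the NRF2 branch were chosen after they were seen. Nfe2l2, the NRF2 gene, was at 0.17 ± 0.17 and its inhibitor Keap1 at 0.16 ± 0.17, with Keap1 between 0.06 and 0.26 when 1 array was left out. Maff, a small MAF partner of NRF2, was at 1.24 ± 0.19 (adjusted p = 0.0716) and the related factor Nfe2l1 at 0.77 ± 0.17 (adjusted p = 0.149). Both were among the 6 with the trend, as was Cebpg (0.65 ± 0.16), a partner of ATF4. This list was chosen with results of these arrays known, so its count is not independent evidence of a direction.

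**Figure D4:**
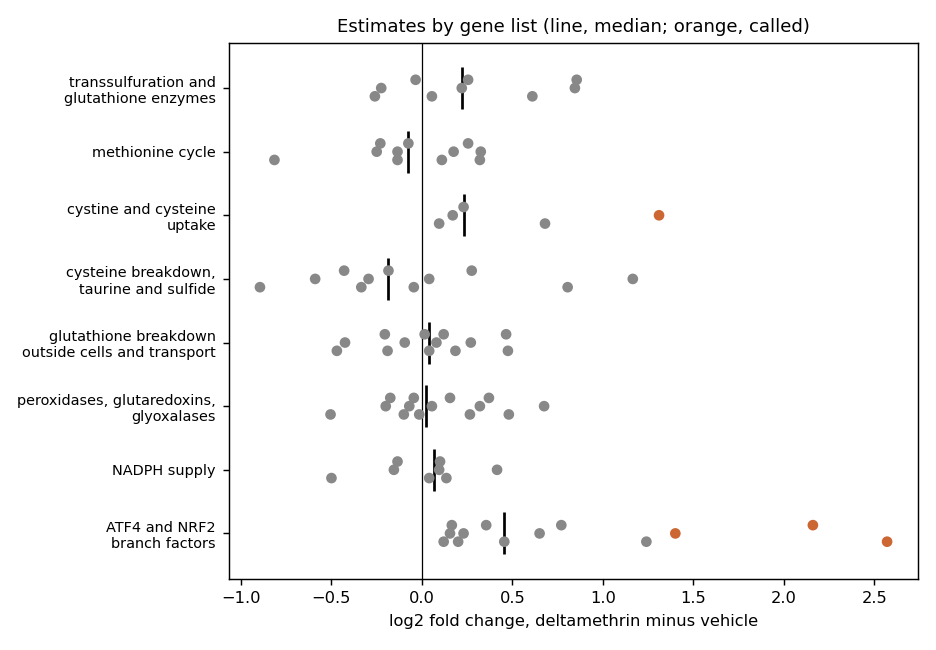
Log2 fold change (x axis) of every measured gene in the enzyme set and in 7 lists of neighbouring steps and regulators (y axis, points spread vertically for sight), with called genes in orange and a line at each median. Slc7a11, Trib3, Atf3 and Ddit3 are the called genes, and the 9 enzyme genes run from -0.26 to 0.86.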

How the data were processed

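Total RNA of 2 vehicle and 2 deltamethrin samples was read on Affymetrix Clariom S Mouse arrays. The deposited values are log2 expression, 1 per probe set and array, for which the submitters' processing notes name RMA and Transcriptome Analysis Console. No version or RMA variant is given in the sources used here, and the log2 scale was read from the values. RMA aligns the arrays' distributions and can shrink a shift shared by most genes. No detection call was given.

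Groups and replicate numbers came from the sample titles. Symbols came from the platform annotation, matched by Entrez ID to RefSeq: 19572 probe sets had 1 symbol, 0 had several and 2634 had none here. All 22206 were fitted with limma 3.58.1 in R 4.3.3 (lmFit, eBayes, no trend, no block), with 2 residual and 4.43 prior degrees of freedom. The fit was tested on simulated data. A list's gene was read by its brightest probe set. "Rose" and "fell" mean called at an adjusted p below 0.05. The enzymes and lists were chosen with earlier results of these data known. Named were all 9 enzymes and, in each list of neighbouring steps or regulators, the called genes, that of largest absolute estimate and the brightest, plus the 3 genes most like the leading enzyme (1 symbol, not predicted, level above the median). Alternatives were a replicate block, a filter at the 40th percentile of level, quantile normalization, median centring, a mean-variance trend, robust and no moderation, and each array left out in turn.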

Additional observations from a re-analysis of the deposited data

How the results depend on the processing

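The count of enzyme genes called was 0 in 10 of 11 alternatives in limma and 2 with a mean-variance trend (Cth and Chac1). In 6 of those 10 no probe set at all was called, so they bear on no enzyme. With all 4 arrays kept, between 2 and 4 enzymes had an unadjusted p below 0.05. There were 4 with the trend, beside 3539 of the 22206 probe sets, and 2 without moderation, beside 2293. The 4 were Cth, Gclc, Gclm and Chac1, and the 2 were Gclm and Chac1. Without moderation Cth and Gclc were thus not among them, so which enzymes passed this threshold depended on the moderation. Leaving out any 1 array gave between 0 and 0 called, where the single array left in a group is taken to vary as the pair does. The count over all probe sets was 96. It was 89 with robust moderation, 806 with the trend (500 rose, 306 fell), 312 with dim probe sets left out (239 rose, 73 fell), 0 without moderation (2293 at an unadjusted p below 0.05), 0 with the replicate block (3221 at an unadjusted p below 0.05) and between 0 and 0 with 1 array left out. The labels do not say that replicate numbers pair arrays. Deviations of same-numbered arrays from their group means correlated at 0.13. The replicate block, the level filter, the trend and robust or no moderation left each estimate as it was, so no direction could change. Where no probe set was called, no gene could become a call. The counts that follow are in large part set by this. Of 99 enzyme estimates under alternatives, 95 kept their direction and side of the threshold and 2 became calls. The other 2 changed sign near 0: Gsr was at -0.005 without vehicle replicate 1 and Chac2 at 0.13 without deltamethrin replicate 2, and with 1 array left out their estimates ran from -0.005 to 0.12 and from -0.20 to 0.13. Of 329 estimates for the 30 other genes named, 291 stayed on their side, 24 lost a call, 13 became calls with the trend or with dim probe sets left out, and 1 changed sign. The 4 called genes among them (Slc7a11, Ddit3, Atf3 and Trib3) lost their calls where no probe set was called, keeping their direction. Idh1 changed sign without deltamethrin replicate 2 (-0.04; with 1 array left out, between -0.04 and 0.12). Quantile normalization kept the direction of the 3 within-array changes (0.32, 0.93 and 0.74). The number of arrays limits what could be called.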
